A study of Mus musculus with 12 samples.

Results

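The inflammasome and pyroptosis genes described here are 10 genes listed by symbol: the sensors Nlrp3, Mefv, Naip2, Naip5 and Nlrc4, the adapter Pycard, the caspases Casp1, Casp4 and Casp8, and the pore-forming executioner Gsdmd. The list was drawn up by name and not from a threshold on these counts, but with earlier results of these data known. All 10 were found among the 37991 genes of the count table. RNA-seq counts were read in 12 libraries of bone-marrow-derived dendritic cells (BMDCs), antigen-presenting cells grown from mouse marrow, from C57BL/6 mice that were wild type (WT) or labelled Vav1/2/3-/- (KO), a combined loss of 3 Vav signalling proteins. Each genotype was either left untreated or given curdlan for 3 hours, at a dose that the labels write as 200 mg/ml. Curdlan is a particulate beta-glucan from bacteria that is used to mimic a fungal cell wall. This gave 4 groups of 3 libraries: WT unstimulated (numbered 1, 2 and 4), WT with curdlan (1, 2 and 4), KO unstimulated (1, 2 and 5) and KO with curdlan (2, 4 and 5). Wild-type mice of the same strain name were the controls, and no allele or agent beyond these is named in the labels. The labels give no age and do not say whether libraries of a group came from separate mice or cultures, so each p-value reflects library-to-library spread that may be technical in part.

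An inflammasome is a cytosolic complex in which a sensor that has met a microbial product or cell damage recruits the adapter ASC (the product of Pycard) and caspase-1. Caspase-1 then cleaves the precursors of IL-1 beta and IL-18, and cleaves gasdermin D, whose released fragment forms pores in the plasma membrane and kills the cell by pyroptosis. In myeloid cells the Nlrp3 transcript and the IL-1 beta precursor are themselves induced by NF-kB, a step known as priming. Dectin-1, the receptor for curdlan, signals through Syk to CARD9 and NF-kB, and the study asked what Vav proteins contribute to that route. RNA counts report the amount of transcript and say nothing of complex assembly, cleavage or cell death, which were not measured.

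Library totals ran from 41421718 to 61217861 counts, and 18981 genes passed the filter on low counts. Each group had been sequenced on its own lane (5, 6, 7 or 8), so effects of lane and of group cannot be told apart. The targeted transcripts did not check the KO label: among unstimulated libraries, Vav2 averaged 67.3 ± 3.1 CPM (SD, n = 3) in WT against 282 ± 6.04 CPM under the KO label, Vav1 133 ± 2.18 against 212 ± 18.1 CPM, and Vav3 26.3 ± 4.04 against 36.6 ± 4.52 CPM. CPM is the count of a gene per 1e+06 counts of its library, after scaling between libraries. In neither state did a Vav transcript fall past the threshold under the KO label, and whole-gene counts cannot separate deleted from retained exons. Each direction between genotypes below is therefore a direction between labels. All 10 conventional dendritic cell markers had counts in every group, but so had all listed markers of macrophages, neutrophils and B cells. Detection alone therefore could not check the dendritic cell label.

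Markers of other cells moved with the genotype label, and their part in the genotype differences given below was not tested. Without curdlan, the summed level of 10 macrophage markers was 12700 to 13500 CPM in WT against 19000 to 23800 CPM under the KO label, and after curdlan it was 11900 to 13200 against 19200 to 21700 CPM. Of these 10 markers, 8 were higher in the libraries labelled KO without curdlan and 9 with it. Lyz2 made up most of these sums (12000 ± 428 CPM in unstimulated WT against 15500 ± 2030 CPM under the KO label, 1.29-fold). In the same state Mrc1 (466 ± 61.7 against 654 ± 183 CPM) and Cd68 (266 ± 10.4 against 314 ± 37.4 CPM) also differed little. Some other macrophage markers differed by far more. Without curdlan, Apoe averaged 13.8 ± 3.17 CPM in WT against 1640 ± 244 CPM (119-fold), C1qa 62.1 ± 22.4 against 1190 ± 83.1 CPM (19.2-fold), C1qb 159 ± 38.3 against 1690 ± 153 CPM (10.6-fold) and Adgre1 77.8 ± 3.14 against 312 ± 34.3 CPM (4.01-fold). Neutrophil markers summed to 4900 to 6120 CPM in WT against 7150 to 10800 CPM under the KO label before curdlan, and 4180 to 4830 against 6320 to 9910 CPM after it, with 9 of 10 higher in each state. Mast cell and basophil markers ran from 53.8 to 63.2 CPM in WT against 205 to 353 CPM before curdlan, and from 49.1 to 59.3 against 207 to 324 CPM after it (6 of 7 higher in each state). The sum of conventional dendritic cell markers ran the other way, from 2710 to 2880 CPM in WT against 2260 to 2440 CPM before curdlan. After curdlan it was 3360 to 3420 CPM in WT against 2790 to 3120 CPM under the KO label. Itgax, the largest of them in unstimulated WT, averaged 1490 ± 90.1 CPM there against 788 ± 76.5 CPM under the KO label. Sirpa, the next largest, was higher under that label (731 ± 2.25 against 1130 ± 44.5 CPM). Of these 10 dendritic cell markers, 4 were lower and 2 higher without curdlan, and 5 were lower and 1 higher with it. Of all genes tested, 21.1% were higher and 23.3% lower under the KO label without curdlan, and 24.7% and 26.8% with it. B cell markers were lower under the KO label for all 6 tested of 7 in each state (median log2 -3.50 without curdlan and -3.11 with it), with sums of 59.3 to 68.4 CPM in WT against 26.1 to 31.6 CPM before curdlan and 64 to 70.1 against 20.9 to 26.9 CPM after it. Sums of T and NK cell markers were near 0 but also split by label. They were 5.06 to 6.21 CPM in WT against 2.33 to 3.11 CPM before curdlan. After it they were 6.11 to 6.55 against 2.82 to 3.6 CPM. Of the 4 tested of 8, 1 was lower under the KO label without curdlan and 2 with it. Lck made up most of the WT sum without curdlan (3.25 ± 0.6 against 0.466 ± 0.0594 CPM under the KO label). In that state Cd3d (0.722 ± 0.0485 against 0.925 ± 0.117 CPM) and Cd247 (0.789 ± 0.184 against 0.913 ± 0.146 CPM) ran the other way. Gzma was at 0 in each group. In bulk RNA, a change in the number of cells of a type and a change in RNA per cell cannot be told apart.

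The 10 genes lie at 8 separate places in the mouse genome (GRCm38, GENCODE release M21). Nlrp3 (ENSMUSG00000032691) spans chromosome 11, 59541568 to 59566956, plus strand. Mefv (ENSMUSG00000022534) spans chromosome 16, 3707218 to 3718097, minus strand, and Nlrc4 (ENSMUSG00000039193) chromosome 17, 74425438 to 74459142, minus strand. Casp1 (ENSMUSG00000025888; chromosome 9, 5298517 to 5307265) and Casp4 (ENSMUSG00000033538; chromosome 9, 5308828 to 5336783) are plus-strand neighbours with 1562 bases between them. They shared no 50-base exonic window. Naip2 (ENSMUSG00000078945; chromosome 13, 100144063 to 100202092) and Naip5 (ENSMUSG00000071203; chromosome 13, 100211739 to 100246323) are minus-strand neighbours with 9646 bases between them. Of the 50-base exonic windows of Naip2, 18.1% also occurred in another Naip gene, and for Naip5 the share was 32.3%. No source used here gives how reads with several matches were counted, so the split of counts between these paralogs is uncertain. Casp8 (ENSMUSG00000026029) spans chromosome 1, 58795374 to 58847503, plus strand, and Gsdmd (ENSMUSG00000022575) chromosome 15, 75862327 to 75867408, plus strand. Pycard (ENSMUSG00000030793) spans chromosome 7, 127989708 to 127993867, minus strand, where 485 bases overlap the antisense gene Gm45205, which is not in the count table. No strand setting is given for the counting, so reads of that overlap cannot be assigned.

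RefSeq promoter windows (GRCm38.p6, the 250 bases before a transcript start) matched 9 of the 10 genes, with 11 windows in all. Gsdmd was not matched. The windows of Nlrp3 and Casp4 (the first of 2 starts for each) are shown because both transcripts rose with curdlan under both genotype labels. That of Mefv is shown because Mefv had the highest fold between genotypes among the 10. Capitals mark a match to the NF-kB consensus of 10 bases. The coordinates are chr11:59541319-59541567 (plus strand) for Nlrp3, chr9:5308599-5308827 (plus strand) for Casp4 and chr16:3718125-3718374 (minus strand) for Mefv, and bases that GENCODE annotates as transcribed were left off.
Nlrp3: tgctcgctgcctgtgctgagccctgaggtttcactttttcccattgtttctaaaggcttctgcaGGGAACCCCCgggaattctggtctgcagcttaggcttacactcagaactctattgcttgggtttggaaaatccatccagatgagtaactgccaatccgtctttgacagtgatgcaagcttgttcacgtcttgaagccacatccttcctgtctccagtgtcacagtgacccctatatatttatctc
Casp4: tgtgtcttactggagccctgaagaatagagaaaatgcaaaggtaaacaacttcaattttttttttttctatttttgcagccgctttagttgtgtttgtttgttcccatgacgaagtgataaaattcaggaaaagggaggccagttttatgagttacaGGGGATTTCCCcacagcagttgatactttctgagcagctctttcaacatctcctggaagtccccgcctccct
Mefv: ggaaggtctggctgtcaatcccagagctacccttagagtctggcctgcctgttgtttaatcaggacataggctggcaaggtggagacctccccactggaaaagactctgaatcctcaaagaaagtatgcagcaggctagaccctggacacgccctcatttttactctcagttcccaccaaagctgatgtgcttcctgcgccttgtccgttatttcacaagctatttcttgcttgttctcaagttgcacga
The Nlrp3 match lay 186 to 177 bases before the start, on the strand opposite to the gene. In Casp4, overlapping matches on both strands covered the bases 93 to 83 before the start. The last 21 bases before that start were left off the printed sequence. From the other Casp4 start the same letters lay 104 to 94 bases away. Naip5 held another such match, 218 to 209 bases before its start, and the Mefv window held none. The window of the other Nlrp3 start (chr11:59542436-59542685, plus strand) held no match to any of the motifs searched. Of 32851 RefSeq windows of the same length, 3.9% held this consensus on either strand. The windows were also searched on both strands for TGANTCA (AP-1, in 6.75% of all windows), GAAANNGAAA (ISRE, 2.98%), TTCNNNGAA (GAS, 7.02%) and GAGGAAGT (PU.1, 2.44%). The last of these occurred in the Pycard window, 44 to 37 bases before the start, the first 3 in none of the 11, and no match overlapped that of another motif. A match describes letters in a window and not a bound site.

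To set the members beside each other, CPM was divided by the length of the longest coding transcript (CPM per kilobase). In unstimulated WT cells the order of these levels was Gsdmd (58 ± 1.61), Nlrp3 (42.3 ± 1.66), Pycard (37.9 ± 1.8), Casp8 (31.3 ± 1.45), Casp1 (29.1 ± 0.842), Casp4 (18 ± 1.14), Naip2 (14 ± 2.99), Naip5 (7.32 ± 0.114), Nlrc4 (4.25 ± 0.472) and Mefv (1.44 ± 0.211). Casp8 and Casp1 were neighbours within their summed SDs, as were Casp4 and Naip2. The executioner thus stood highest and pyrin lowest on this scale. In libraries labelled KO with curdlan, Nlrp3 led at 233 ± 21.4 CPM per kilobase, followed by Gsdmd (92.6 ± 10.3) and Casp4 (84.3 ± 5.14), which were within their summed SDs. Mefv stood at 14 ± 2.43 and above both Naip genes, and Nlrc4 was lowest at 4.06 ± 0.235. The places of Casp4 and Casp8 and the lead of Gsdmd depended on the length used. Over all annotated exons the level of Casp4 in unstimulated WT was 6.98 CPM per kilobase, below Naip5 at 7.32. On that length Gsdmd stood at 43.8, beside Nlrp3 at 41.9. Over the shortest coding transcript Casp8 stood at 49.7 in unstimulated WT, above Nlrp3 at 43.2.

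**Figure D1:**
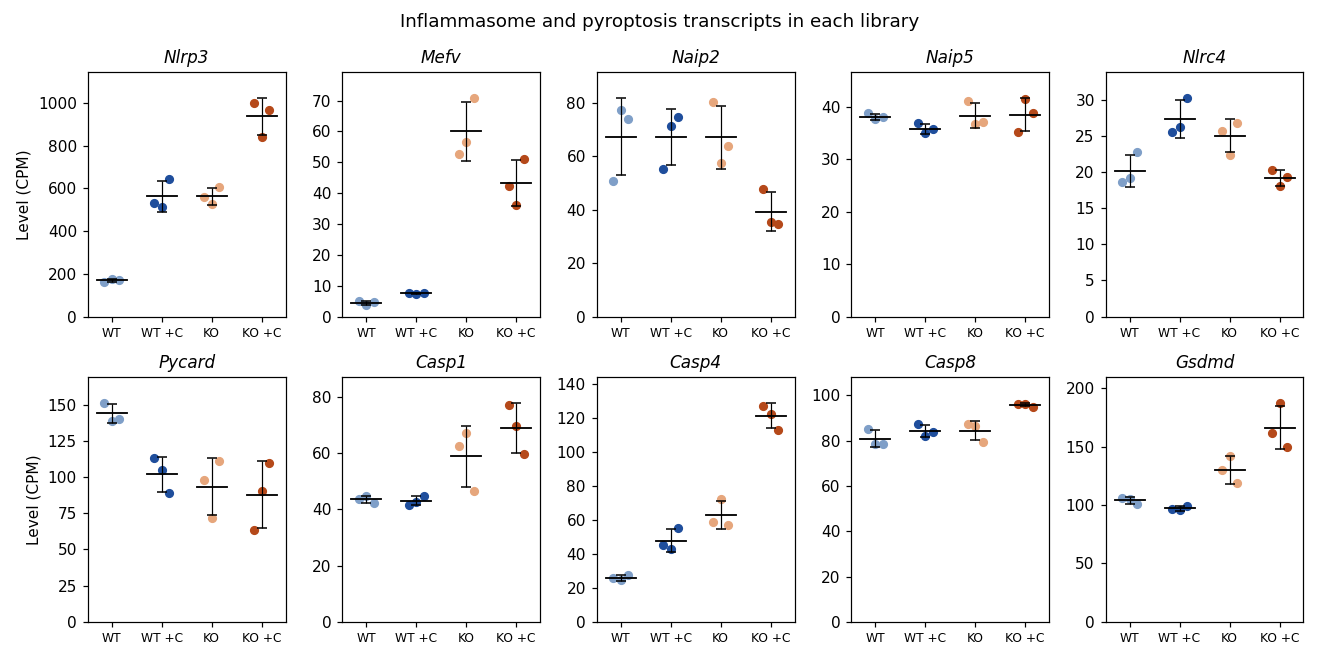
Level of each gene in each library in CPM (y axis, linear from 0, with a scale of its own for each gene), for WT and KO-labelled libraries without and with curdlan (+C); points are libraries, horizontal lines the group means and bars the SD (n = 3). Nlrp3 lay at 162 to 174 CPM in unstimulated WT and at 839 to 1000 CPM under the KO label with curdlan, and the WT points of Mefv all lay below 8 CPM.

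Across the members, curdlan raised 4 of 10 transcripts in WT (Nlrp3, Mefv, Nlrc4 and Casp4) and lowered none past the threshold, an adjusted p under 0.05 in edgeR's quasi-likelihood F-test with Benjamini-Hochberg adjustment over the 18981 genes. Of all genes tested, 19.8% passed in this comparison, 11.4% as higher and 8.4% as lower. Among the members, 1 was lower in WT at an unadjusted p under 0.05 (Pycard), and DESeq2 called the same gene. In the libraries labelled KO, curdlan raised 4 (Nlrp3, Casp4, Casp8 and Gsdmd) and lowered 3 (Mefv, Nlrc4 and Naip2), where 28.6% of all genes passed (14% higher and 14.6% lower). Only 4 of the 7 members passed when the WT groups were left out of the fit, and 4 without KO unstimulated 5 or without KO curdlan 4. The test of the difference between the responses called 3 members, each with a lower response under the KO label (Nlrp3, Mefv and Nlrc4), against 5.21% of all genes (1.61% higher and 3.6% lower). No member had a higher response past the threshold. At an unadjusted p under 0.05 there was 1, Gsdmd, which DESeq2 did call.

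Between genotypes without curdlan, 6 members were higher in the libraries labelled KO (Nlrp3, Mefv, Nlrc4, Casp1, Casp4 and Gsdmd) and 1 was lower (Pycard), where 44.4% of all genes tested were called (21.1% higher and 23.3% lower). Among curdlan-treated libraries 6 were higher (Nlrp3, Mefv, Casp1, Casp4, Casp8 and Gsdmd) and 2 lower (Nlrc4 and Naip2), while 51.4% of all genes passed (24.7% higher and 26.8% lower). The median log2 fold change over the 10 members was 0.03 for curdlan in WT, 0.09 for curdlan under the KO label, 0.32 for KO against WT without curdlan and 0.43 with it, beside medians over all genes of -0.03, -0.00, -0.01 and 0.01. The comparisons share libraries: unstimulated WT, for example, is the base both of the WT response and of the unstimulated genotype difference. Among all called genes the share that was higher was 57.6% for curdlan in WT, 49% for curdlan under the KO label, 30.8% for the difference of responses, and 47.5% and 48% for KO against WT without and with curdlan. Scaling by library size alone gave 25.1%, 17.9%, 15.7%, 26.4% and 23.7% in the same order, with the median of all genes at -0.17, -0.20, -0.06, -0.19 and -0.24, and upper-quartile scaling gave 46.3% and 42% for the WT response and for the difference. Under library size alone the members passing between unstimulated genotypes numbered 4 in place of 7. Same-numbered libraries, by the numbers in the library names, deviated together across states, and with that number as a block the genes passing rose to 7276 from 3759 for curdlan in WT and to 2671 from 989 for the difference of responses, and the members passing in the latter to 6 from 3. The authors' comparison table numbers the WT curdlan libraries in another order, and a block on those numbers gave 4815 and 682 genes, with 3 members passing for the difference. Gains with the first block for the differences of Pycard, Gsdmd and Naip2 therefore rest on which numbering is right. DESeq2, fitted without a block, also called those of Gsdmd and Naip2. In WT, pairs by library name had correlated deviations from their group means (r = 0.395, 0.239 and 0.129). Pairs by the comparison table's numbers gave r = -0.245, 0.0822 and -0.158. The KO-labelled libraries carry the same numbers in both, so the 2 blocks differ only in how WT libraries are matched. KO unstimulated 1 and KO curdlan 4 have no partner of their number. With either block the curdlan response under the KO label, and its part in the difference, thus rests on numbers 2 and 5.

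**Figure D2:**
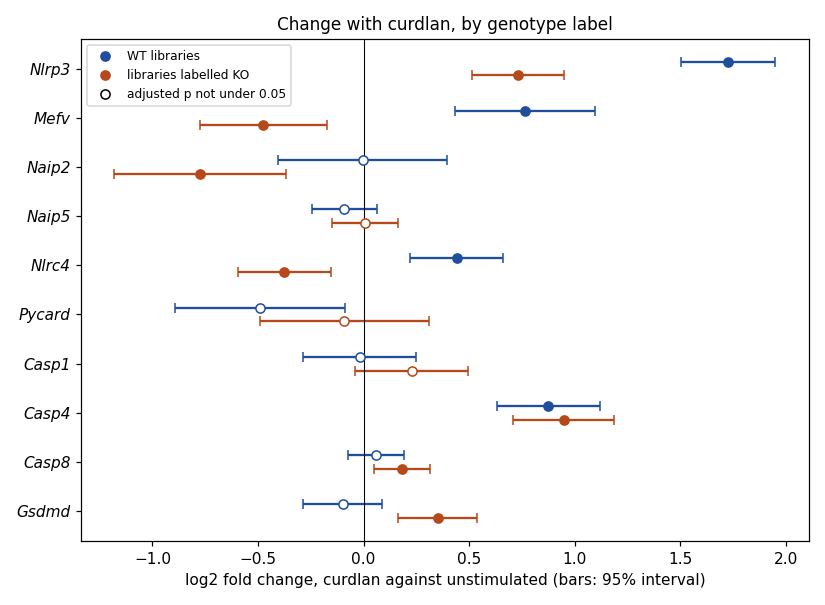
Log2 fold change with curdlan (x axis) of each gene in WT libraries (blue) and in libraries labelled KO (orange), with 95% intervals; filled points passed the adjusted p of 0.05 and open points did not. Mefv and Nlrc4 lay to the right of 0 in WT and to the left under the KO label, and Casp4 lay near 0.9 in both.

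Nlrp3, the sensor of potassium loss and membrane damage that is the inflammasome sensor most studied in fungal recognition, rose with curdlan under both labels and by a smaller fold in the libraries labelled KO. WT libraries 1, 2 and 4 held 162, 174 and 173 CPM before curdlan and 529, 514 and 643 CPM after it. Under the KO label, the unstimulated libraries 1, 2 and 5 held 560, 525 and 605 CPM, and the curdlan-treated libraries 2, 4 and 5 held 1000, 839 and 967 CPM. The unstimulated KO-labelled libraries thus lay in the range of the curdlan-treated WT libraries (563 ± 40.1 against 562 ± 70.6 CPM), and every other pair of groups was free of overlap. Curdlan raised Nlrp3 3.31-fold in WT (log2 1.73, SE 0.10, adjusted p = 6.21e-07) and 1.66-fold under the KO label (log2 0.73, SE 0.10, adjusted p = 0.000263). The difference of these responses was -0.99 on the log2 scale (SE 0.14, adjusted p = 0.00517). Against WT, Nlrp3 was 3.32-fold higher under the KO label without curdlan (adjusted p = 1.28e-07) and 1.67-fold higher with it (adjusted p = 8.2e-05). The level with curdlan was therefore highest in the libraries labelled KO, although the fold over the unstimulated state was smaller there. In CPM the means rose from 170 to 562 in WT and from 563 to 936 under the KO label. The smaller response is thus a statement about ratios, from a higher starting level.

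Mefv encodes pyrin, a sensor of the inactivation of RhoA by bacterial toxins that is expressed in neutrophils and other myeloid cells. WT libraries held 4.89, 3.7 and 4.75 CPM before curdlan and 7.65, 7.32 and 7.74 CPM after it. Libraries labelled KO held 52.6, 56.7 and 70.8 CPM before curdlan and 42.3, 36.2 and 51.2 CPM after it. Every KO-labelled library lay above every WT library, and curdlan moved the genotypes in opposite directions. Mefv rose with curdlan in WT (log2 0.77, SE 0.15, adjusted p = 0.00402) and fell under the KO label (log2 -0.47, SE 0.14, adjusted p = 0.0236), with a difference of -1.24 (SE 0.21, adjusted p = 0.00849). The fall under the KO label lost its call without KO unstimulated 5 (adjusted p = 0.0889), without KO curdlan 4 (0.0906) or in a fit of the KO-labelled groups alone (0.0696). Against WT, Mefv was 13.5-fold higher under the KO label without curdlan (log2 3.75, SE 0.16, adjusted p = 9.39e-09) and 5.71-fold higher with it (log2 2.51, SE 0.15, adjusted p = 1.69e-07). The lowest count in any library was 222 reads, so counting error was small beside these folds. The macrophage and neutrophil marker sums were higher in the same libraries. Without curdlan, Apoe (119-fold) and C1qa (19.2-fold) differed by more than Mefv, and the other listed macrophage markers by less. The part of these cell types in the Mefv difference was not tested.

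Nlrc4 is the platform protein that NAIP sensors recruit once they have bound a bacterial ligand. WT libraries held 18.6, 19.1 and 22.7 CPM before curdlan and 25.5, 26.2 and 30.2 CPM after it. Those labelled KO held 25.7, 22.4 and 26.8 CPM before curdlan and 20.3, 18.1 and 19.3 CPM after it. Within each genotype the states did not overlap, and the order of the states was inverted between genotypes. Nlrc4 rose in WT (log2 0.44, SE 0.10, adjusted p = 0.009) and fell under the KO label (log2 -0.38, SE 0.10, adjusted p = 0.0166), with a difference of -0.82 (SE 0.14, adjusted p = 0.00974). The rise was lost without WT curdlan 4 (adjusted p = 0.0508), and the fall without KO unstimulated 1 (0.058), KO unstimulated 5 (0.0583) or KO curdlan 4 (0.0606), and with the block on the comparison table's numbers (-0.31, adjusted p = 0.136). The difference itself passed in each of these cases, as the differences of Nlrp3 and Mefv did under every alternative tried. Against WT, Nlrc4 was lower under the KO label with curdlan (log2 -0.50, adjusted p = 0.00136). Without curdlan it was higher (log2 0.31, adjusted p = 0.0239), but the groups overlapped. That call was lost without WT unstimulated 1 or 2 or KO unstimulated 1 or 5 (adjusted p from 0.0696 to 0.0937), under library size alone (0.29) and with the block on the comparison table's numbers (0.0654).

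The NAIP sensors bind the bacterial ligands themselves: the product of Naip2 binds the inner rod protein of type III secretion systems and that of Naip5 binds flagellin. Naip2 levels in WT were 50.8, 77.3 and 73.9 CPM before curdlan and 55.2, 71.3 and 74.9 CPM after it. In libraries labelled KO they were 80.4, 57.4 and 63.8 CPM before curdlan and 47.9, 35.3 and 34.7 CPM after it. These last 3 lay below all 9 other libraries. Naip2 fell with curdlan under the KO label (log2 -0.77, SE 0.19, adjusted p = 0.009) and was lower there than in WT with curdlan (log2 -0.77, SE 0.19, adjusted p = 0.00425). The fall lost its call with the block on the comparison table's numbers (-0.57, adjusted p = 0.0799). In WT its change was -0.00 (95% interval -0.41 to 0.40). The difference of the responses was -0.77 and did not pass (adjusted p = 0.0963). With the block on the numbers of the library names it did (-0.57, adjusted p = 0.0216), but not on the comparison table's numbers (0.241). It also passed with DESeq2 (-0.78, adjusted p = 0.0366) and without KO curdlan 2 (-0.94, adjusted p = 0.0322). Naip5 passed in no comparison: its group means ran from 35.8 ± 0.928 to 38.5 ± 3.13 CPM. The 95% interval of its log2 change with curdlan was -0.25 to 0.07 in WT and -0.15 to 0.16 under the KO label, and that of KO against WT was -0.15 to 0.16 without curdlan and -0.05 to 0.26 with it. At an unadjusted p under 0.05 Naip5 passed in none of the 5 either, and DESeq2 gave it no call, but with scaling by library size alone it passed as lower with curdlan in WT (-0.22, adjusted p = 0.0299) and under the KO label (-0.19, adjusted p = 0.049). Naip2 and Naip5 are adjacent and share exonic sequence, as given above, so values of both rest on how shared reads were assigned.

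Pycard encodes ASC, the adapter that joins sensors with a pyrin domain to caspase-1. WT libraries held 151, 139 and 140 CPM before curdlan and 113, 105 and 88.8 CPM after it. Those labelled KO held 98.1, 71.6 and 111 CPM before curdlan and 63.5, 90.4 and 110 CPM after it. Unstimulated WT stood above the 9 other libraries, which overlapped each other, and the spread was wider in the libraries labelled KO. Pycard was lower under the KO label without curdlan (log2 -0.62, SE 0.19, adjusted p = 0.0163), and leaving out KO unstimulated 2 ended this call (log2 -0.46, adjusted p = 0.0642). The change with curdlan in WT was -0.49 (SE 0.18) and did not pass (adjusted p = 0.0824), but it did with the replicate block (-0.50, adjusted p = 5.43e-05) and with DESeq2 (-0.48, adjusted p = 0.0462). Under the KO label the change was -0.09 (95% interval -0.49 to 0.31). The difference of responses was 0.40 (adjusted p = 0.362, 0.0192 with the block and 0.115 with the block on the comparison table's numbers). KO against WT with curdlan was -0.22 (adjusted p = 0.342), which became -0.34 with the block (adjusted p = 0.0432). For this contrast the block matched WT with KO-labelled libraries of the same number, a match that no label gives.

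Of the caspases, Casp4 changed most. It encodes caspase-11, which binds lipopolysaccharide in the cytosol and cleaves gasdermin D without an upstream sensor complex. WT libraries held 25.8, 24.4 and 27.6 CPM before curdlan and 44.9, 42.6 and 55.1 CPM after it. Libraries labelled KO held 58.7, 72 and 57.1 CPM before curdlan and reached 127, 122 and 113 CPM after it. The 4 groups did not overlap at all. Curdlan raised Casp4 1.84-fold in WT (log2 0.88, SE 0.11, adjusted p = 0.000189) and 1.93-fold under the KO label (log2 0.95, SE 0.11, adjusted p = 8.58e-05). The difference of the responses was 0.07 with a 95% interval of -0.27 to 0.41 (adjusted p = 0.821), so a difference within that interval cannot be told from none. KO-labelled libraries were higher than WT 2.41-fold without curdlan (adjusted p = 2.83e-06) and 2.54-fold with it (adjusted p = 1.94e-06). Where the log2 response of Nlrp3 was smaller under the KO label, the fold between genotypes in Casp4 was nearly the same in both states. In CPM the Casp4 means rose from 25.9 to 47.6 in WT and from 62.6 to 121 under the KO label.

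Casp1, the neighbour of Casp4 and the cytokine-processing caspase of the canonical pathway, stood in WT at 43.7, 44.9 and 42.3 CPM before curdlan and at 41.6, 42.7 and 44.9 CPM after it. Under the KO label it stood at 62.6, 67.3 and 46.5 CPM before curdlan and at 77.2, 69.6 and 59.8 CPM after it. All WT libraries lay within 41.6 to 44.9 CPM and below every library labelled KO. Casp1 was higher under the KO label before curdlan (log2 0.43, SE 0.12, adjusted p = 0.013) and after it (log2 0.68, SE 0.12, adjusted p = 0.000672). The first call was lost without KO unstimulated 1 (adjusted p = 0.0524) or 2 (0.0626) and with scaling by library size alone (0.113). Its change with curdlan was -0.02 in WT (95% interval -0.29 to 0.25) and 0.23 under the KO label (adjusted p = 0.187), where the replicate block gave 0.28 (adjusted p = 0.0113).

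Casp8, the apical caspase of death receptors that can also cleave the IL-1 beta precursor, varied little. It ranged from 78.7 to 87.3 CPM over the WT libraries of both states and from 79.4 to 87.2 CPM in KO-labelled libraries without curdlan. After curdlan those labelled KO reached 96.3, 96 and 95 CPM, above the 9 others. The test called it higher there than in unstimulated KO-labelled libraries (log2 0.18, SE 0.06, adjusted p = 0.0428) and than in WT with curdlan (log2 0.18, SE 0.06, adjusted p = 0.0243), but with scaling by library size alone both values turned negative (-0.02 and -0.06). The former call was lost when any 1 of the 6 KO-labelled libraries was left out (adjusted p from 0.0653 to 0.156) and with the block on the comparison table's numbers (0.113). The latter was lost without WT curdlan 2 or 4 or KO curdlan 2 or 4 (adjusted p from 0.0559 to 0.0948).

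Gsdmd encodes gasdermin D, the pore-forming substrate on which the canonical and caspase-11 routes converge. WT libraries held 106, 105 and 101 CPM before curdlan and 96.5, 95.6 and 99 CPM after it. KO-labelled libraries held 130, 142 and 119 CPM before curdlan and 162, 187 and 150 CPM after it. The states did not overlap under either label, with the curdlan-treated libraries lower in WT and higher under the KO label. Gsdmd rose with curdlan under the KO label (log2 0.35, SE 0.09, adjusted p = 0.00963), a call lost under library size alone (0.15, adjusted p = 0.193) or when the WT groups were left out of the fit (0.0654). The WT change was -0.10 (95% interval -0.28 to 0.09, adjusted p = 0.466). The difference of the responses was 0.45 (SE 0.12) with an adjusted p of 0.0538, and the replicate block gave 0.36 (adjusted p = 0.0187, and 0.0894 on the comparison table's numbers), DESeq2 0.44 (0.0163) and upper-quartile scaling 0.50 (0.0416). It also passed without KO unstimulated 2 (adjusted p = 0.0362), KO curdlan 2 (0.0394) or KO curdlan 5 (0.0392). KO-labelled libraries were higher than WT by 0.33 without curdlan (adjusted p = 0.00824, and 0.187 with library size alone) and by 0.78 with it (adjusted p = 1.74e-05).

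**Figure D3:**
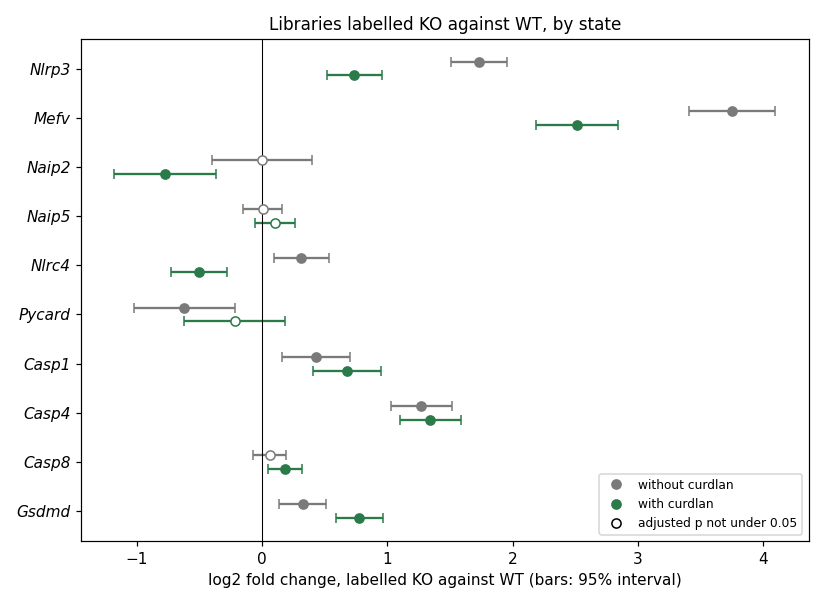
Log2 fold change of libraries labelled KO against WT (x axis) for each gene without curdlan (grey) and with it (green), with 95% intervals; filled points passed the adjusted p of 0.05 and open points did not. Mefv lay farthest from 0 in both states (3.75 and 2.51), and Nlrc4 changed side (0.31 and -0.50); the filled point of Casp8 (0.18) turned negative with scaling by library size alone (-0.06).

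Over the 12 libraries, the members that moved together most were Casp1 and Gsdmd (Pearson r of log2 CPM 0.935) and Nlrp3 and Casp4 (r = 0.927), while Casp8 and Naip2 ran most opposite (r = -0.819). These values describe 12 libraries in 4 groups that share lanes and genotype labels, and carry no p. Searched among 10999 genes, Nlrp3 was most like Kdm6b (a histone demethylase induced in activated macrophages; r = 0.995), Nfkbiz (a nuclear IkB protein; r = 0.994) and Cflar (the inhibitor of caspase-8 activation; r = 0.994). Casp4 was most like Rnf31 (a subunit of the linear ubiquitin ligase; r = 0.994), Cds1 (r = 0.994) and the interferon-inducible GTPase gene Tgtp1 (r = 0.994). Mefv was most like Lacc1 (r = 0.992), Pcid2 (r = 0.989) and Zfp263 (r = 0.989). Naip5, whose level hardly varied, had no gene above r = 0.877 (Mbd6).

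The pathway around the members was read from 5 lists of 63 other genes, of which 61 were in the count table and 54 passed the filter. Curdlan raised 12 and lowered 6 in WT, and raised 15 and lowered 15 under the KO label, beside the 19.8% and 28.6% of all genes given above. The responses differed for 7, with 1 higher and 6 lower under the KO label, beside 5.21% of all genes. Between genotypes 23 were higher and 7 lower in the libraries labelled KO without curdlan, and 22 higher and 13 lower with it, beside 44.4% and 51.4% of all genes. With scaling by library size alone these splits became 9 and 14, 10 and 26, 1 and 7, 17 and 12, and 17 and 22, so the balance of directions rests on the scaling. Upper-quartile scaling gave 11 and 9 for the WT response. With the replicate block 31 genes passed for curdlan in WT and 11 for the difference, against 22 and 3 on the comparison table's numbers. The count for the difference was also 3 without WT unstimulated 1, WT curdlan 2 or KO unstimulated 1, and 13 without KO curdlan 2. The marker sums given above move with the same genotype labels.

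The cytokine substrates and their antagonists were the list with the highest folds after curdlan: 4 of 7 rose in WT and 6 of 7 under the KO label. Of all genes, 11.4% rose in WT and 14% under the KO label. Il1b, the substrate of caspase-1, stood in WT at 425, 479 and 552 CPM before curdlan and at 1980, 2060 and 2460 CPM after it. Libraries labelled KO stood at 775, 557 and 1310 CPM before curdlan and at 2260, 1900 and 4220 CPM after it. It rose by log2 2.16 in WT (SE 0.32, adjusted p = 0.000578) and 1.67 under the KO label (SE 0.32, adjusted p = 0.00224). KO library 5 was the highest of its group in both states, as it also was for Il1a (521 and 2430 CPM). Il1a, an alarmin released on membrane rupture, rose by 2.89 in WT and by 2.20 under the KO label, and Il1rn, the receptor antagonist, by 2.47 and 2.63. The higher level of Il1b under the KO label without curdlan (log2 0.86, adjusted p = 0.0398) was lost with DESeq2 (0.0581), with library size alone (0.0825) and when any of WT unstimulated 1, 2 or 4 or KO unstimulated 1 or 5 was left out (adjusted p from 0.0526 to 0.216; log2 0.46 without KO unstimulated 5). Il18, the other substrate of caspase-1, was a low transcript at 3.1 ± 0.289 CPM in unstimulated WT and 5.3 ± 1.47 CPM under the KO label with curdlan. Il18bp, which neutralises IL-18, was higher under the KO label by log2 1.98 without curdlan (adjusted p = 1.06e-06) and 1.52 with it (adjusted p = 8.27e-06). The alarmin Il33 was lower by 2.64 and 2.20 log2 units, from 4.28 ± 0.689 to 0.691 ± 0.164 CPM without curdlan.

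Among 12 other sensors tested of 13 listed, 2 rose and 3 fell in WT, and 2 rose and 5 fell under the KO label. Of all genes, 19.8% passed in WT and 28.6% under the KO label. Nod2, a sensor of bacterial muramyl dipeptide that forms no inflammasome itself, measured 42.1 ± 3.29 CPM in unstimulated WT, 62.8 ± 1.65 in WT after curdlan, and 129 ± 6.79 before and 108 ± 17 after curdlan under the KO label. It rose in WT (log2 0.58, adjusted p = 0.00194), and its response was lower under the KO label by 0.84 (SE 0.14, adjusted p = 0.00926). Nlrp12, which restrains inflammatory signalling in myeloid cells, fell under both labels (log2 -0.99 in WT, adjusted p = 0.00707, and -2.34 under the KO label, adjusted p = 2.65e-05). Aim2, the sensor of cytosolic DNA, rose under the KO label (log2 0.70, adjusted p = 9.58e-05). Between genotypes, 4 sensors were higher and 2 lower without curdlan, and 3 higher and 4 lower with it. The shares called among all genes were 44.4% and 51.4%. Nod2 was higher under the KO label by 1.62 and 0.78 (adjusted p = 2.41e-07 and 6.07e-05) and Nod1 by 1.17 and 1.04 (adjusted p = 2.29e-05 and 5.57e-05), without and with curdlan. Nlrp1a was lower before curdlan (log2 -1.13, adjusted p = 0.000143) and after it (log2 -0.64, adjusted p = 0.00666).

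Of 22 cofactors and regulators tested, 4 rose and 3 fell in WT, and 5 rose and 6 fell under the KO label. The shares of all genes passing were 19.8% and 28.6%. The interferon-inducible GTPase gene Irgm1 rose most in both, by log2 2.18 in WT (adjusted p = 7.12e-05) and 1.67 under the KO label (adjusted p = 0.000324), from 26 ± 1.81 to 117 ± 49.7 and from 119 ± 24.5 to 379 ± 44.6 CPM. Bcl2l1, a survival protein that also binds NLRP1, rose by 1.21 and 0.77. Txnip, a redox protein that binds NLRP3, fell in WT by 0.78 log2 units (adjusted p = 0.00133). Between genotypes 9 were higher and 2 lower under the KO label without curdlan, and 10 higher and 4 lower with it. Among all genes 44.4% and 51.4% were called. The guanylate-binding protein genes Gbp3 and Gbp7, relatives of the GTPases that open bacterial vacuoles to caspase-11, were higher by 1.75 and 1.79 without curdlan and by 1.85 and 1.54 with it. The unstimulated levels of Gbp3 were 46, 42.3 and 39.8 CPM in WT against 147, 169 and 115 CPM under the KO label, with no overlap. The response of Sugt1, a co-chaperone of NLR proteins, was higher under the KO label by 0.35 (adjusted p = 0.0212). This call was lost without WT unstimulated 1 or 4, WT curdlan 2 or KO unstimulated 1 (adjusted p from 0.0546 to 0.0717), without the low-count filter (0.0607) and with the block on the comparison table's numbers (0.104).

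The other caspases and death adapters (11 tested) held 1 rise in WT, that of Cflar, and 2 rises and 3 falls under the KO label. The shares of all genes passing were 19.8% in WT and 28.6% under the KO label. Cflar levels in WT were 168, 186 and 202 CPM before curdlan and 467, 478 and 577 CPM after it. Under the KO label they were 532, 508 and 512 CPM before curdlan and 847, 706 and 688 CPM after it. As with Nlrp3, the unstimulated KO-labelled libraries lay within the range of the curdlan-treated WT libraries. Cflar rose by log2 1.45 in WT (SE 0.11, adjusted p = 3.15e-06) and by 0.53 under the KO label (SE 0.11, adjusted p = 0.00309), with a difference of -0.92 (SE 0.15, adjusted p = 0.00784). Casp9, the apical caspase of the mitochondrial route, fell under the KO label (log2 -0.67, adjusted p = 6.41e-05), and Zbp1, the nucleic acid sensor of necroptosis, rose (log2 0.88, adjusted p = 0.00289). Without curdlan 4 of the 11 were higher under the KO label and 2 lower, Ripk3 (log2 -0.57, adjusted p = 1.73e-05) and Casp9 among the latter. With curdlan 3 were higher and 4 lower. Among all genes 44.4% were called without curdlan and 51.4% with it.

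Of 8 other gasdermin and membrane rupture genes in the table, 2 passed the filter, Ninj1 and Dfna5 (the file's symbol for gasdermin E). Ninj1, whose product ruptures the plasma membrane after gasdermin pores have formed, stood in WT at 123, 117 and 112 CPM before curdlan and at 146, 144 and 138 CPM after it. In KO-labelled libraries it stood at 315, 281 and 283 CPM before curdlan and at 256, 229 and 216 CPM after it. It was higher under the KO label before curdlan (log2 1.32, adjusted p = 1.21e-07) and after it (log2 0.71, adjusted p = 1.4e-05), and its response was lower there by 0.61 (SE 0.11, adjusted p = 0.0105). Its rise in WT (log2 0.28, adjusted p = 0.0221) was lost with library size alone (0.169) and without WT unstimulated 2 or 4 or WT curdlan 1 or 2 (adjusted p from 0.0678 to 0.0978), and the fall under the KO label (log2 -0.33, adjusted p = 0.00798) in a fit of the KO-labelled groups alone (0.058) and with the block on the comparison table's numbers (0.0709). Dfna5 was a lower transcript (10.7 ± 1.32 CPM in unstimulated WT) and was higher under the KO label with curdlan by 0.66 (adjusted p = 0.00679, and 0.0627 with library size alone).

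**Figure D4:**
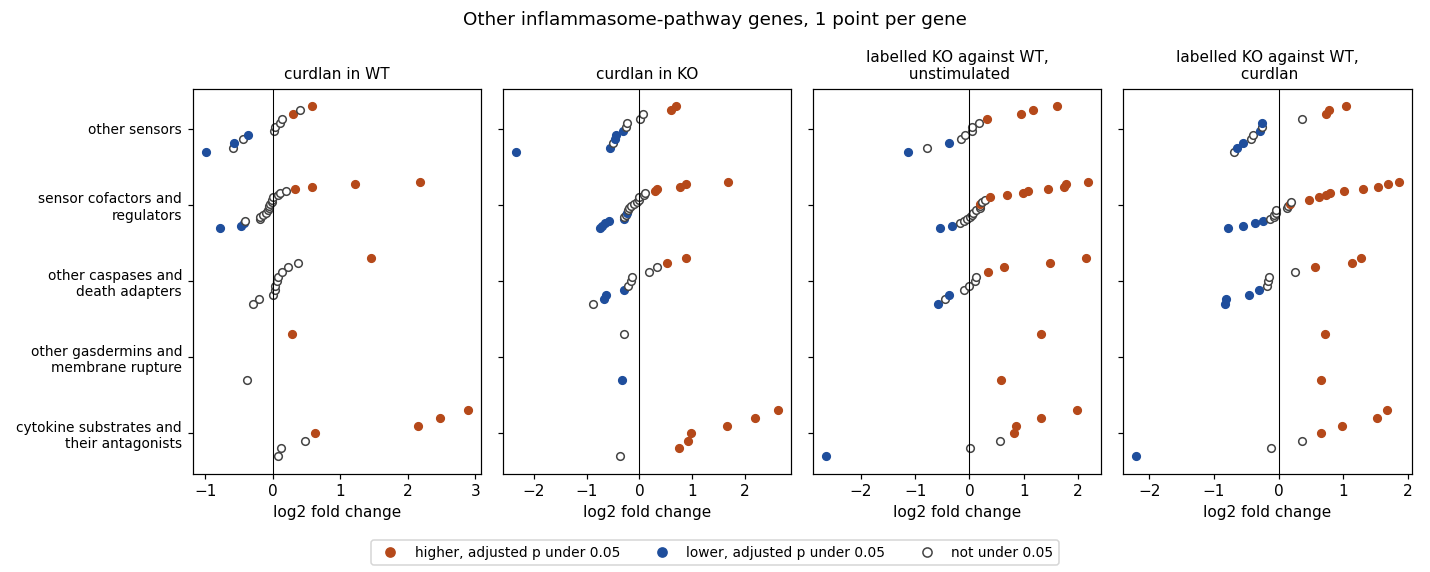
Log2 fold change (x axis) of each pathway gene past the low-count filter, by list, in 4 comparisons; each point is a gene, in orange where higher and in blue where lower at an adjusted p under 0.05, and open otherwise. The cytokine substrates reached 2.89 in WT with curdlan and 2.63 under the KO label; with scaling by library size alone the balance of higher and lower genes turned in the WT response, from 12 and 6 to 9 and 14.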

How the data were processed

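The authors' deposited count table gives raw whole-number read counts for every gene in every library, per the file headers. The submitters' processing notes name featureCounts 1.4.6, TopHat2 (its version given as 2.4.2a), DESeq2 1.8.2, SAMtools 1.2 and FastQC 0.11.1. The genome build, annotation, strand setting and rule for multi-mapping reads were not given in the sources used here. Libraries were made with a TruSeq RNA v2 kit, per the labels' protocols. The authors also deposited comparison tables with log2 fold changes and with p-values, per the file headers, and the 18 columns of per-library values in those tables were not used.

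Symbols were those in the authors' files and covered 33170 of 37991 genes. A total of 10118 genes had no count. From the counts, edgeR 4.0.16 (R 4.3.3) fitted 4 group means to all 12 libraries after filterByExpr by group and TMM scaling, with a two-sided quasi-likelihood F-test. Benjamini-Hochberg adjustment ran over the 18981 genes tested. CPM was computed on effective library sizes, and SE is the absolute log2 fold change divided by the square root of F. The script was tested on simulated counts. Libraries within a group differed beyond sampling noise (chi-square per degree of freedom 9.15 to 77.1), and none were merged.

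The members and the gene lists were chosen with earlier results of these data known. Named genes were all members, up to 4 genes per list and comparison by absolute fold among those past the threshold (fewer where calls were lost when a library was left out), the 3 genes most like a member, and Vav1, Vav2 and Vav3. Alternatives were other scalings, no filter, DESeq2 1.42.0, fits of the compared groups, a replicate block and each library left out. The replicate numbers come from the library names. Same-numbered libraries deviated together across states (r = 0.395, 0.239 and 0.129 in WT, 0.287 and 0.557 under the KO label). Differently numbered pairs ran from -0.47 (KO unstimulated 2 with KO curdlan 5) to 0.246 (KO unstimulated 2 with KO curdlan 4). The numbers were taken as pairs in the replicate block only, and the main fit ignored any pairing. The comparison table numbers the WT curdlan columns 4, 1 and 2 where identical columns of the count table are numbered 1, 2 and 4. That numbering was tried as a block after the data were seen, as was exon-union length. For the contrasts between genotypes the number was a block in the fit of all libraries. It thus matched WT with KO-labelled libraries of the same number, and no label ties the numbers across genotypes.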

Additional observations from a re-analysis of the deposited data

Results flagged for a closer look

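Of the 10 members, 3 had a response to curdlan that differed between the genotype labels by the test of the difference itself. Nlrp3 rose under both labels and its response was lower under the KO label by 0.99 on the log2 scale (value -0.99, adjusted p = 0.00517, edgeR). Mefv rose in WT and fell under the KO label, with a difference of -1.24 (adjusted p = 0.00849). Nlrc4 did likewise, with a difference of -0.82 (adjusted p = 0.00974). For each of them the difference passed in all 19 alternatives, with adjusted p at most 0.0201 for Nlrp3, 0.0256 for Mefv and 0.0454 for Nlrc4. These genes were flagged by passing the main test on the same libraries, so the choice itself favours passing again.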

How the results depend on the processing

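Of 750 values of the members under alternatives, 654 kept their direction and side of the threshold, 37 lost their call, 21 gained one and 38 changed sign. Scaling by library size alone turned Casp8 to -0.0158 for curdlan under the KO label, -0.0609 for KO against WT with curdlan, -0.1202 without it and -0.0751 for curdlan in WT, and turned Naip5 to -0.19 under the KO label, -0.18 for KO against WT without curdlan and -0.14 with it. The other changes of sign were in values near 0 that had not passed. Naip2 for curdlan in WT became 0.0022 with RLE, 0.0189 in a fit of 2 groups, 2e-04 with DESeq2, 0.0061 with the replicate block and 0.0064 with the comparison table's numbers. Naip2 for unstimulated KO against WT became 0.011, 0.0076 (DESeq2), 0.1075 (block) and 0.0235 (comparison table's numbers). Naip5 became -0.0088 under the KO label and -0.0028 between unstimulated genotypes with no filter, and -0.0275 there with upper-quartile scaling. Casp1 in WT became 0.0038 in a fit of 2 groups.

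With 1 library left out, the values that changed sign ran from -0.0492 to 0.0062 for Casp1 and -0.1713 to 0.1186 for Naip2 (curdlan in WT), -0.2907 to 0.0942 for Pycard and -0.0529 to 0.0639 for Naip5 (curdlan under the KO label), -6e-04 to 0.1913 for Casp4 (difference of responses), and -0.1715 to 0.1077 for Naip2 and -0.0465 to 0.0345 for Naip5 (KO against WT without curdlan).

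Genes passing for curdlan in WT went from 3759 to 6123 with library size alone and 7276 with the replicate block, and the pathway genes from 18 to 31 with the block. Under the KO label a fit of 2 groups gave 3142 in place of 5425, and 4 members in place of 7. For the difference of responses DESeq2 gave 2211 and the block 2671 in place of 989, 5 and 6 members in place of 3, and 11 pathway genes with the block and 3 with the comparison table's numbers in place of 7. Library size alone gave 4 members in place of 7 between unstimulated genotypes. Leaving out 1 library gave 2170 to 3122 genes for curdlan in WT (lowest without WT curdlan 4), 3490 to 6074 under the KO label (lowest without KO unstimulated 1) with 4 to 6 members, and 366 to 2837 for the difference (lowest without WT curdlan 2, highest without KO curdlan 2) with 3 to 5 members and 3 to 13 pathway genes. Neither block changed another call of a member than those given beside the results. Among the named pathway genes, 67 of 1071 values under alternatives lost their call and none changed sign. These genes were chosen for high folds past the threshold and partly for calls kept when a library was left out, so the choice itself favours such counts and they are no sign of stability. A gene length from the count table was not used, and exon-union length moved Casp4 to 6.98, Casp8 to 28 and Gsdmd to 43.8 CPM per kilobase in unstimulated WT. With 3 libraries a group, shifts as small as that of Casp8 were at the limit of what the test called.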

Other observations

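The authors' deposited table named an interaction gives log2 values for the members that differ from the difference of curdlan responses computed here. For Nlrp3 the authors' deposited table gives 1.74, for Mefv 3.77 and for Naip2 0.01. Over the 10 members the values of the authors' deposited table lay within 0.0123 of the unstimulated KO against WT contrast (median gap 0.011), and up to 5.01 from the difference of responses (median gap 0.892). The authors' deposited table of KO against WT with curdlan gives 0.72 for Nlrp3, 2.45 for Mefv, 1.31 for Casp4, -0.50 for Nlrc4 and -0.75 for Naip2, with no directions that differ from the contrast computed here for these 5 genes.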
